A study of Mus musculus with 2 samples.

Results

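The interleukin-1 and interleukin-18 family was represented by 10 genes, chosen by symbol among 32285 gene rows of each library. They were the ligands Il1b, Il1a and Il18, the secreted antagonists Il1rn and Il18bp, and the receptor chains Il1r1, Il1rap, Il1r2, Il18r1 and Il18rap. Cells came from BALB/cAnNCrl mice that carried 4T1 liver metastases (4T1 is a mouse mammary carcinoma line), and all groups shared this strain and tumor. The mice received either the vehicle or a low or a high dose of the curaxin CBL0137 by hepatic arterial infusion, and cells of 2 mice per group were pooled 5 days later. The hashtags A0301 (vehicle), A0305 (low dose) and A0310 (high dose) told the groups apart within each of 2 droplet libraries, one with the label liver and one with the label spleen. The methods describe female mice bought at 7 to 8 weeks of age, and the amounts that made up the low and the high dose are not given separately. The methods also describe CD11b+ bead-isolated cells where the labels describe leukocytes.

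Interleukin-1 beta, interleukin-1 alpha and interleukin-18 are inflammatory cytokines that are made as precursors. Inflammasomes activate caspase-1, which cleaves interleukin-1 beta and interleukin-18, whereas interleukin-1 alpha is active uncleaved. The IL-1 receptor chain IL-1R1 signals together with the accessory protein IL-1RAP through MyD88. The antagonist IL-1Ra competes for this receptor, the decoy IL-1R2 captures the ligand without signaling, and the IL-18 binding protein neutralizes interleukin-18. Neutrophils and other myeloid cells are known sources of interleukin-1 beta, and NK and T cells are the classical responders to interleukin-18.

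Marker genes of 5 cell types went against the tissue labels of the libraries, and the deposited files name the tissues the other way round. Summed over 10 hepatocyte markers, the liver-labelled library held 8.52 counts per 1000000 UMIs (CPM; a UMI is 1 captured transcript), with a UMI for 3 of the 10, and the spleen-labelled library held 99.3 CPM with all 10. In the same order, Kupffer cell markers reached 16.6 and 672 CPM, endothelial markers 38.7 and 362 CPM, epithelial (4T1) markers 5.59 and 370.4 CPM, and B cell markers 1857 and 447 CPM. The libraries are therefore named by their labels alone throughout. The liver-labelled library contained 9591 barcodes (median 4673 UMIs) and the spleen-labelled library 4830 (median 3368.5 UMIs). Hashtags assigned 3103, 3194 and 2138 cells to the vehicle, the low dose and the high dose in the liver-labelled library, and 822, 1301 and 865 cells in the spleen-labelled library. In the latter, 1627 barcodes had no hashtag call, and A0310 was the leading hashtag of 1425 of them. Other hashtag callers assigned 2069 (MULTIseqDemux) and 2345 (dominant hashtag) cells to the high dose there, against the 865 used here. The libraries shared 15 barcodes.

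Each group was 1 pooled sample per library, so no test was possible and no p-value is given. All intervals are at 95% and cover counting error only, not the difference between mice. A gene was called past the fold when it differed at least 2-fold with at least 20 UMIs over both groups.

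By GRCm38 positions, the genes fell into clusters. On chromosome 2, Il1b (ENSMUSG00000027398) lay on the minus strand at chr2:129364570-129371139, next to Il1a (ENSMUSG00000027399) at chr2:129299610-129309972, also on the minus strand. Il1rn (ENSMUSG00000026981) was on the plus strand of the same chromosome at chr2:24336853-24351494. The receptor genes Il1r2 (chr1:40074079-40125231), Il1r1 (chr1:40225080-40317257), Il18r1 (chr1:40465552-40500854) and Il18rap (chr1:40515362-40551705) stood in this order on the plus strand of chromosome 1. Il1rap was at chr16:26581704-26730117, Il18 at chr9:50554827-50581840 and Il18bp at chr7:102014885-102018690.

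The promoters of Il1b, Il1a and Il18rap are shown because the results turn on the cells that held these transcripts: Il1b in neutrophil-like cells, its neighbor Il1a in macrophage-like and endothelial-like cells, and Il18rap in both lymphoid and neutrophil-like cells. Each sequence is the 250 bases before the RefSeq start site (GRCm38.p6), read on the strand of the gene, and capitals mark matches to the motifs searched. The Il1b window is chr2:129371140-129371389, the Il1a window chr2:129309973-129310222 and the Il18rap window chr1:40515112-40515361.
Il1b: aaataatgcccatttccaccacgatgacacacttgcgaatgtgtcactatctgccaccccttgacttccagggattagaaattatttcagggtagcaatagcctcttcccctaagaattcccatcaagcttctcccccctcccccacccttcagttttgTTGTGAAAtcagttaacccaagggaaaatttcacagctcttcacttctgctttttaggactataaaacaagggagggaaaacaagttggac
Il1a: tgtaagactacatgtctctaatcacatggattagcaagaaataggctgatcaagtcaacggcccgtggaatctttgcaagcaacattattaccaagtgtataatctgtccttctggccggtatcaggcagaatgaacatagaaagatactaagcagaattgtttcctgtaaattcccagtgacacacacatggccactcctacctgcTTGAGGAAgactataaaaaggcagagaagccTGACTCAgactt
Il18rap: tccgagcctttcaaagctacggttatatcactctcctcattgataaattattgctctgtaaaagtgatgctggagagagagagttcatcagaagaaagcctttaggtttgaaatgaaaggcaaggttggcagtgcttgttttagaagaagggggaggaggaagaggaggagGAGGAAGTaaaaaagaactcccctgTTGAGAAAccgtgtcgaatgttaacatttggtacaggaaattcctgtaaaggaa
The capitals mark a C/EBP match (TTNNGNAA) 91 to 84 bases before the start of Il1b. In Il1a they mark a C/EBP match at 43 to 36 bases and an AP-1 match (TGANTCA) at 12 to 6 bases before the start. In Il18rap they mark a PU.1 match (GAGGAAGT) at 79 to 72 bases and a C/EBP match at 54 to 47 bases. Both strands were searched for these motifs, the CREB/ATF site TGACGTCA and the NF-kappaB site. All 10 genes had RefSeq windows (15 in all). C/EBP matches were found in 8 of these 15 windows (6 genes) and AP-1 matches in 2, beside shares of 36.8% and 6.75% of 32851 windows of all genes. PU.1 matches were found in 1 of the 15 and in 2.44% of all windows, NF-kappaB matches in 1 (of Il1r1) and in 3.9%, and CREB/ATF matches in 0 and in 1.55%. A match describes the letters only.

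Cell classes were named from marker lists, with the 10 genes and their pathway left out of the clustering. Neutrophil-like cells were the largest myeloid class, with 2915 cells in the liver-labelled library and 1135 in the spleen-labelled library, each in 6 clusters. Between 3 and 12 of 14 neutrophil markers were raised in each of these clusters, and the fewest (Csf3r, Cxcr2 and Hdc) were raised in cluster 5 of the liver-labelled library. By group, they numbered 1430, 1287 and 198 cells in the liver-labelled library and 360, 620 and 155 in the spleen-labelled library. Their depth moved with the dose: the median UMI count per cell was 4360 for the vehicle, 5724 for the low dose and 18598 for the high dose in the liver-labelled library, and 4932, 4299 and 14147 in the spleen-labelled library.

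The ligands divided by cell class. Il1b, over all groups, was highest in neutrophil-like cells of both libraries, at 804 CPM (793 to 815) in the liver-labelled library and 1586 CPM (1560 to 1612) in the spleen-labelled library. Dendritic-like (251 CPM) and macrophage-like cells (243 CPM) followed in the liver-labelled library with intervals that met, and monocyte-like cells were at 167 CPM. Within the spleen-labelled library, monocyte-like (770 CPM) and macrophage-like cells (747 CPM) followed with intervals that met, ahead of dendritic-like cells (384 CPM). Neutrophil-like cells thus held 92.5% of all Il1b UMIs in the liver-labelled library and 72.3% in the spleen-labelled library. At the high dose alone they were not the highest class of the spleen-labelled library. There they were at 299.6 CPM, below macrophage-like (559 CPM), monocyte-like (488 CPM) and dendritic-like cells (422 CPM). In the liver-labelled library they were at 149 CPM at that dose. Dendritic-like cells, with 37 UMIs, were at 172 CPM, and the intervals met. T-like cells, which should largely lack the transcript, were at 9.67 and 119 CPM over all groups. In vehicle cells alone they were at 24.1 and 30.9 CPM. B-like cells held 95 Il1b UMIs in 1524 cells and 2 in 131 cells, in the same order. Whether background differed between the libraries was not tested.

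Il1a was a macrophage-like and endothelial-like transcript. In the liver-labelled library, macrophage-like cells held 57 of 78 Il1a UMIs at 106 CPM (79.9 to 137), and the next class, dendritic-like cells, was at 2.94 CPM. Of the 57 UMIs, 47 were from the low dose (228 CPM), 8 from the high dose and 2 from the vehicle (9.93 CPM). For the spleen-labelled library, endothelial-like cells were at 95.2 CPM and Kupffer-like cells at 78.9 CPM, with intervals that met, and macrophage-like cells were at 46.0 CPM and held 43.7% of the UMIs. In neutrophil-like cells only 5 and 19 Il1a UMIs were counted in the liver-labelled and spleen-labelled libraries, which was too few for a comparison of doses. The neighboring ligand genes on chromosome 2 were thus highest in different cell classes, although macrophage-like cells held both.

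Il18 was highest in macrophage-like cells of the liver-labelled library, at 422 CPM (369 to 481), and in Kupffer-like cells of the spleen-labelled library, at 207 CPM (178 to 239). Dendritic-like cells followed at 44.2 CPM in the liver-labelled library and monocyte-like cells at 39.0 CPM in the spleen-labelled library. Neutrophil-like cells carried little of this ligand, at 4.71 and 3.47 CPM. B-like cells of the liver-labelled library were at a similar 4.90 CPM (3.26 to 7.08).

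Of the antagonists, Il1rn, which encodes IL-1Ra, was highest in neutrophil-like cells of the liver-labelled library (25.8 CPM, 23.9 to 27.8), followed by monocyte-like cells (12.8 CPM). In the spleen-labelled library it was highest in macrophage-like cells (73.5 CPM, 65.0 to 82.8), and neutrophil-like cells (41.4 CPM) and Kupffer-like cells (38.9 CPM) did not separate. Il18bp was highest in the same classes as Il18 itself: macrophage-like cells of the liver-labelled library (90.7 CPM, 67.1 to 120) and Kupffer-like cells of the spleen-labelled library (454 CPM, 411 to 501). Neutrophil-like cells were second in the liver-labelled library at 18.8 CPM and, being many, held 75.2% of its UMIs there, against 14.5% in the spleen-labelled library.

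The signaling chain and the decoy of the interleukin-1 receptor were highest in different cell classes. Il1r1 was an endothelial-like transcript of the spleen-labelled library at 157 CPM (132 to 186), with 139 of 283 UMIs, followed by 4T1 epithelial-like cells at 32.1 CPM. The liver-labelled library held 73 Il1r1 UMIs in all, of which 47 were in granulocyte progenitor-like cells (3.29 CPM). Neutrophil-like cells held 2 Il1r1 UMIs in each library. Il1r2, in contrast, was highest in neutrophil-like cells, at 292 CPM (285 to 298) in the liver-labelled library and 447 CPM (434 to 461) in the spleen-labelled library. Monocyte-like cells followed at 100.1 and 149 CPM. Neutrophil-like cells held 83.1% and 82.1% of all Il1r2 UMIs. Granulocyte progenitor-like cells held both chains, with 927 Il1r2 UMIs (9.79%) in the liver-labelled library and 97 (1.93%) in the spleen-labelled library. The accessory chain Il1rap was also highest in neutrophil-like cells, at 51.8 CPM (49.1 to 54.6) and 35.9 CPM (32.1 to 40.0).

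The interleukin-18 receptor chains were highest in lymphoid cells of the liver-labelled library, and both were also found in neutrophil-like cells. Il18r1, the ligand-binding chain, was at 256 CPM (221 to 296) in NK-like cells of the liver-labelled library, at 106 CPM in basophil or mast-like cells and at 60.9 CPM in T-like cells. Within the spleen-labelled library, where no cluster was named NK-like, it was highest in T-like cells (81.0 CPM, 69.6 to 93.7). Cluster 4 of these T-like cells (201 cells) had Cd3g, Cd8a, Gzma, Prf1 and Klrd1 among its leading genes. Gzma, Prf1 and Klrd1 also led the NK-like cluster of the liver-labelled library, and whether cluster 4 held NK cells was not tested. Il18rap, the accessory chain, was at 451 CPM (403 to 503) in NK-like cells and 167 CPM in basophil or mast-like cells. Neutrophil-like cells came next at 67.6 CPM (64.5 to 70.8), against 1.05 CPM in B-like cells, and held 67.6% of all Il18rap UMIs in that library. For the spleen-labelled library, neutrophil-like (55.2 CPM) and T-like cells (50.1 CPM) did not separate. Il18r1 was at 9.86 and 8.25 CPM in neutrophil-like cells, which held 19.4% and 19.6% of its UMIs, against 1.23 CPM in B-like cells of the liver-labelled library.

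**Figure D1:**
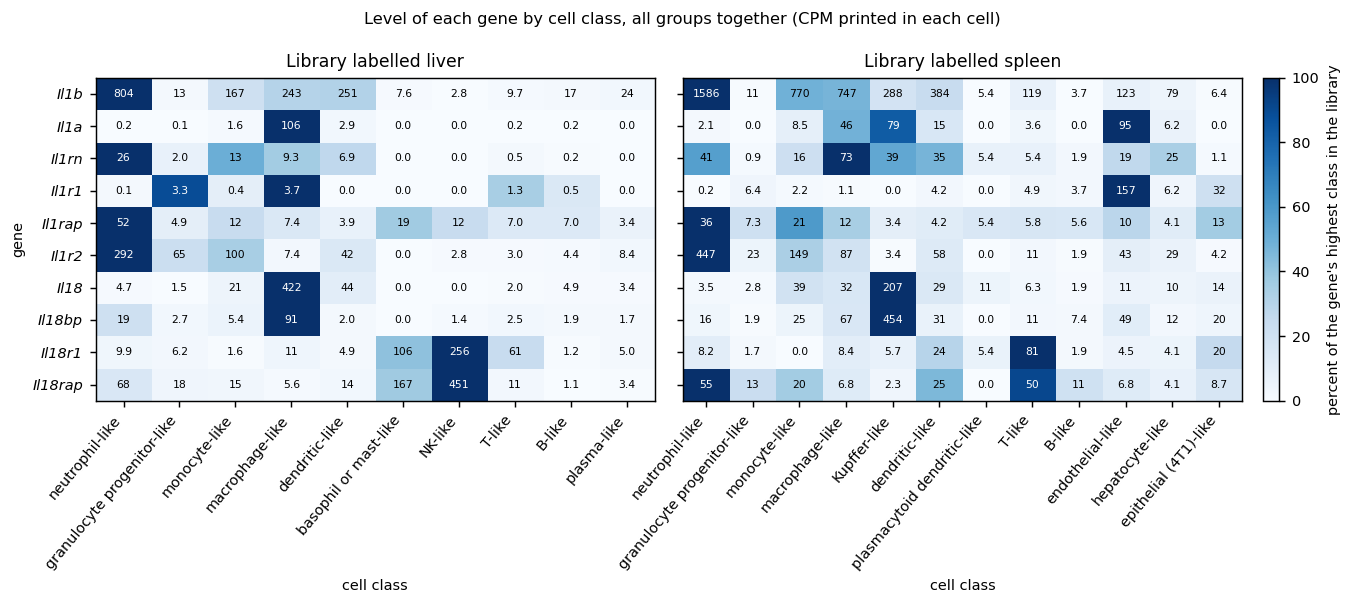
Level of the 10 genes by cell class, with all groups together: rows are genes, columns are cell classes, numbers are CPM and the shade is the percent of the highest class of that gene in the library. Il1b, Il1r2 and Il1rap were highest in neutrophil-like cells of both libraries, and Il1r1 in endothelial-like cells of the spleen-labelled library (157 CPM). Il1a and Il18 were highest in macrophage-like cells of the liver-labelled library (106 and 422 CPM), where most Il1a UMIs came from the low dose.

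The doses were compared with the vehicle in neutrophil-like cells, where 8 of the 10 genes had enough UMIs in each comparison (all but Il1a and Il1r1). At the high dose 1 of the 8, Il1b, was past the fold and lower in each library, beside 17.8% of all genes with enough UMIs in the liver-labelled library and 3.89% in the spleen-labelled library. None was higher, beside 1.09% and 2.65%. At the low dose none was past the fold in the liver-labelled library (background 0.745% higher and 2.87% lower). In the spleen-labelled library, Il1b and Il1rn were higher, beside 2.25% of all genes, and none was lower, beside 2.91%. The median log2 ratio of the 8 genes at the high dose was -0.48 in the liver-labelled library, where that of all genes was -0.38, and -0.37 in the spleen-labelled library, where that of all genes was 0.02. At the low dose it was -0.04 (all genes -0.12) and 0.42 (all genes -0.07).

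Il1b was at 675 CPM for the vehicle, 1178 CPM for the low dose and 149 CPM for the high dose in the liver-labelled library, and at 1199, 2635 and 299.6 CPM in the spleen-labelled library. The low dose was thus the highest and the high dose the lowest group of both libraries. The low dose exceeded the vehicle by a log2 ratio of 0.80 (0.76 to 0.84) and 1.14 (1.08 to 1.19), and the high dose was below it at -2.18 (-2.30 to -2.06) and -2.00 (-2.12 to -1.88). After each cell was thinned to 1000 UMIs, 54.4%, 60.4% and 12.8% of cells in the liver-labelled library and 48.1%, 63.5% and 19.5% in the spleen-labelled library had an Il1b UMI. T-like cells gave a background of at most 0.745% and 1.92% by the same measure. With clusters weighted alike the high-dose ratio was 0.74 and -0.85. This weighting cannot be read firmly, because clusters 5, 2 and 7 of the liver-labelled library held only 0, 3 and 9 high-dose cells. Clusters 2, 5 and 13 of the spleen-labelled library held 3, 10 and 2. Keeping only cells with 200 or more genes and less than 10% mitochondrial UMIs gave -1.11 at the high dose and 1.77 at the low dose in the spleen-labelled library.

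Il1r2, the decoy receptor, moved in opposite directions at the low dose. It was at 349, 245 and 251 CPM in the liver-labelled library, in the order vehicle, low and high dose, and at 400.1, 595 and 258 CPM in the spleen-labelled library. The low dose was below the vehicle in the liver-labelled library (log2 ratio -0.51, -0.58 to -0.44) and above it in the spleen-labelled library (0.57, 0.47 to 0.67), and this difference between libraries was not tested. The high dose was below the vehicle in both (-0.47, -0.57 to -0.37, and -0.63, -0.78 to -0.49), but in the liver-labelled library this did not hold within the clusters that could be compared, 4 (0.13, -0.01 to 0.27) and 8 (0.36, 0.08 to 0.64). The rise in the spleen-labelled library rested on 1 cluster. Cluster 13, led by the acute phase genes Orm1, Saa1 and Saa3 together with Il1r2 and Il1rn, held 2 vehicle cells, 114 low-dose cells and 2 high-dose cells. Without it, Il1r2 stood at 395 CPM for the vehicle and 398 CPM for the low dose (log2 ratio 0.01, -0.10 to 0.13).

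Il1rn was at 21.5, 33.1 and 18.5 CPM in the liver-labelled library and at 23.2, 68.4 and 19.0 CPM in the spleen-labelled library. The low dose was above the vehicle at 0.62 (0.39 to 0.86) and 1.56 (1.17 to 1.96), and the interval of the high dose spanned 0 in both libraries. Without cluster 13, the low-dose ratio in the spleen-labelled library was 0.56 (0.11 to 1.01), below the 2-fold line. Within that cluster Il1rn was at 306 CPM in the low-dose cells. At the low dose, 3 of 6 clusters of the liver-labelled library had an interval above 0 (ratios from -0.13 to 1.11). In the spleen-labelled library, 0 of the 3 clusters with enough UMIs did (-0.53 to 1.26). At the high dose, 1 of 2 clusters of the liver-labelled library had an interval above 0 (ratios -1.60 and 0.91). The 1 cluster of the spleen-labelled library with enough UMIs lay below 0 (-0.96).

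Among the remaining receptor chains, Il1rap was at 52.2, 57.9 and 33.4 CPM in the liver-labelled library, where only the high dose separated from the vehicle (-0.64, -0.93 to -0.37). Within clusters 4 and 8 of that library the ratios had the opposite sign, at 0.45 (0.04 to 0.86) and 0.64 (-0.23 to 1.47). Within the spleen-labelled library it was at 27.6, 47.3 and 27.2 CPM, and only the low dose separated (0.78, 0.39 to 1.17). Without the cluster led by acute phase genes, this low-dose ratio was 0.44 (0.03 to 0.86). In the 4 clusters of that library with enough UMIs for Il1rap, the low-dose ratios were all positive, but 0 intervals lay above 0. Il18rap was lower at the high dose in both libraries, at 52.1 against 72.8 CPM (-0.48, -0.71 to -0.26) and 40.1 against 54.9 CPM (-0.45, -0.83 to -0.08), and intervals for the low dose spanned 0. Its ratios within clusters 4 and 8 of the liver-labelled library, 0.17 and 0.26, had the opposite sign, with intervals that spanned 0. Il18r1 stayed between 7.41 and 10.2 CPM in all 6 groups, with every interval spanning 0. Within the 6 clusters of the liver-labelled library its low-dose ratios ran from -2.22 to 1.32, with 1 interval above 0 and 1 below. Over all neutrophil-like cells, the changes in these receptor chains were each smaller than 2-fold.

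The ligand Il18 was low in neutrophil-like cells, and its antagonist Il18bp was above it in each group. Il18bp was at 23.2, 13.6 and 20.0 CPM in the liver-labelled library, with the low dose below the vehicle (-0.76, -1.06 to -0.47), and at 18.9, 15.3 and 13.8 CPM in the spleen-labelled library, where both intervals spanned 0. Il18 itself was at 6.19, 3.52 and 3.54 CPM in the liver-labelled library and at 3.70, 2.54 and 4.75 CPM in the spleen-labelled library. Only its low-dose ratio in the liver-labelled library had an interval below 0 (-0.81, -1.41 to -0.23). In the same order, T-like cells of that library were at 2.19, 1.56 and 2.31 CPM and B-like cells at 5.24, 3.65 and 5.91 CPM.

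**Figure D2:**
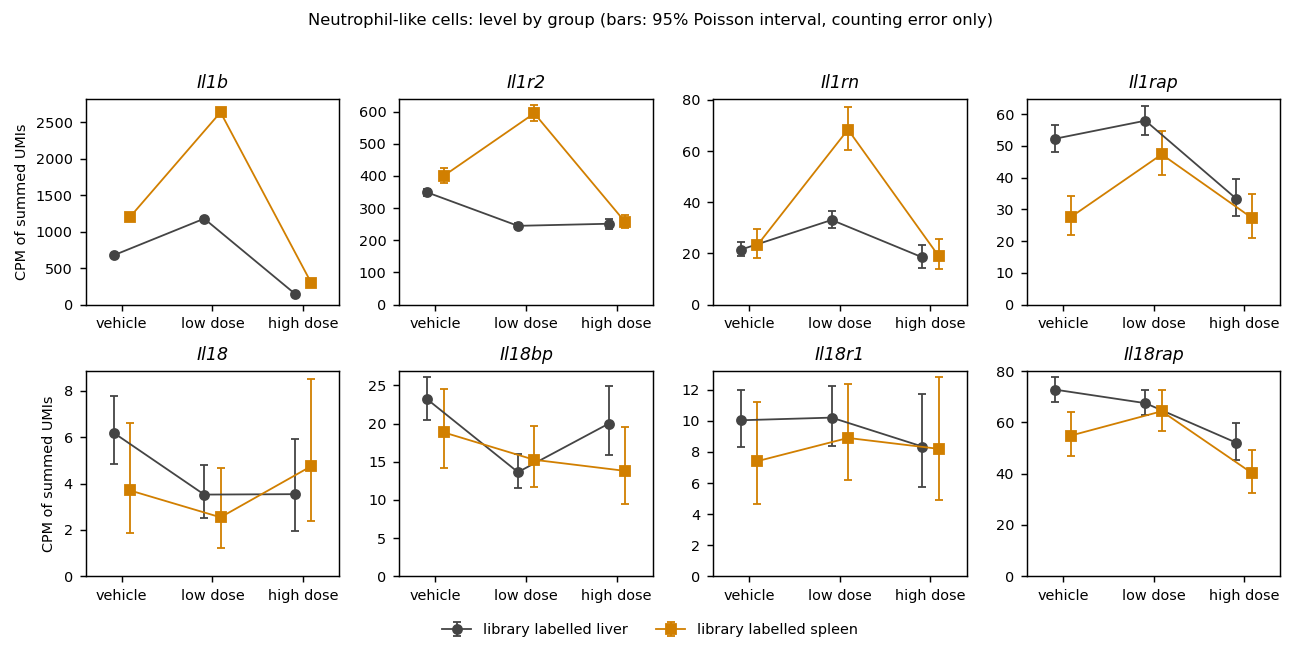
Level of the family in neutrophil-like cells for the vehicle, the low dose and the high dose, in CPM of summed UMIs, for the liver-labelled library and the spleen-labelled library; bars are Poisson intervals. Il1b is highest at the low dose and lowest at the high dose in both libraries (149 and 299.6 CPM), whereas Il1r2 at the low dose lies below the vehicle in one library and above it in the other.

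The libraries also differed from each other in vehicle cells, where 11.4% of all genes were at least 2-fold higher and 9.24% at least 2-fold lower in the spleen-labelled library. No family gene with enough UMIs was past the fold. Il1b was higher in the spleen-labelled library (log2 ratio 0.83, 0.77 to 0.89) and so was Il1r2, to a small degree (0.20, 0.10 to 0.29). Il1rap (-0.92, -1.27 to -0.58) and Il18rap (-0.41, -0.66 to -0.16) were lower there. In low-dose cells the difference in Il1r2 widened to 1.28 and that in Il1rn to 1.05. The class was not made up alike in the libraries. Cluster 11 of the spleen-labelled library, with Cebpe, Fcnb and Elane among its leading genes, was named neutrophil-like. It held 61 vehicle cells and 27.7% of the high-dose neutrophil-like cells. Cluster 11 of the liver-labelled library, also with these 3 leading genes, was named granulocyte progenitor-like. The part of this in the ratios was not tested.

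The neutrophil-like clusters were ordered steeply by Il1b, although Il1b had been left out of the clustering. Over all groups, clusters 5, 2 and 7 of the liver-labelled library were at 4113, 2781 and 1444 CPM, and clusters 8, 4 and 13 at 248, 117 and 40.2 CPM. For the spleen-labelled library, clusters 2, 5, 13 and 0 were at 11247, 5465, 2037 and 1529 CPM, and clusters 6 and 11 at 184 and 40.2 CPM. The depth ran the other way: the median UMI count was 2744, 3550 and 4922.5 in the first 3 clusters of the liver-labelled library and 11432, 16101 and 23117.5 in the others. The lowest cluster of the liver-labelled library was led by granule protein genes (Ltf, Camp and Ngp) and that of the spleen-labelled library by Cebpe and Fcnb, whereas cluster 2 of the spleen-labelled library was led by Ccrl2, Hcar2, Csf1 and Cxcl2 along with Il1b.

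The receptor chains split the clusters in the same way in vehicle cells. Il1r2 was at 778, 593 and 604 CPM in clusters 5, 2 and 7 of the liver-labelled library, and at 284, 226 and 111 CPM in clusters 8, 4 and 13. Il1rap was at 143, 108 and 104 CPM in the first 3 and at 29.4, 24.4 and 8.76 CPM in the others. Il18rap was at 166, 125 and 110.0 CPM and then at 56.6, 45.4 and 35.4 CPM. For each of these genes the 3 clusters with the most Il1b had the 3 highest levels in CPM. They also had the 3 lowest median UMI counts (2744, 3550 and 4922.5), so a level in CPM is not a count per cell. The part of depth in this order was not tested, and how many other genes shared the order was not counted. In the spleen-labelled library Il1r2 went from 1632 CPM in cluster 2 to 106 CPM in cluster 11, and Il1rn from 150 to 3.30 CPM.

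The groups were spread unequally over these clusters. In the liver-labelled library, clusters 5, 2 and 7 held 374, 356 and 282 vehicle cells and 171, 468 and 133 low-dose cells, but 0, 3 and 9 high-dose cells. Cluster 4, led by the cystatin genes Stfa3 and Stfa2, held 149 of the 198 high-dose cells (75.3%), against 15.6% of the vehicle cells. Within the spleen-labelled library, cluster 2 held 100 vehicle, 125 low-dose and 3 high-dose cells.

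Within clusters, Il1b was higher at the low dose almost throughout. Its interval lay above 0 in 6 of 6 clusters of the liver-labelled library, with log2 ratios from 0.77 to 2.30, and in 4 of 5 clusters of the spleen-labelled library. In cluster 2 of the liver-labelled library it went from 1780.5 to 3469 CPM, and in cluster 0 of the spleen-labelled library from 1029.6 to 3322 CPM. The high dose could be compared in the clusters that held at least 20 of its cells. In cluster 4 of the liver-labelled library, Il1b was at 52.5 CPM for the vehicle, 168 CPM for the low dose and 149 CPM for the high dose, so that here the high dose was above the vehicle (1.50, 1.26 to 1.74). In cluster 8 it was below (-0.53, -1.05 to -0.04). For the spleen-labelled library it was above the vehicle in cluster 6 (1.07, 0.68 to 1.47) and below it in clusters 0 (-1.25, -1.45 to -1.05) and 11 (-1.10, -1.92 to -0.33). The lower Il1b of all high-dose neutrophil-like cells was therefore not found in every cluster.

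Il1r2 went opposite ways in the clusters with much and with little Il1b. At the low dose it was lower in clusters 5 (778 to 302 CPM), 2 (593 to 269 CPM), 7 (604 to 451 CPM) and 8 (284 to 183 CPM) of the liver-labelled library. It was higher in clusters 4 (226 to 295 CPM) and 13 (111 to 135 CPM), which had the least Il1b. In the spleen-labelled library it was lower in clusters 2 (1632 to 991 CPM), 5 (726 to 364 CPM) and 0 (575 to 322 CPM), and higher in clusters 6 (239 to 414 CPM) and 11 (106 to 271 CPM), again those with the least Il1b. All of these intervals excluded 0. The order by Il1b was thus shared by the libraries, although the ratios over all neutrophil-like cells had opposite signs.

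**Figure D3:**
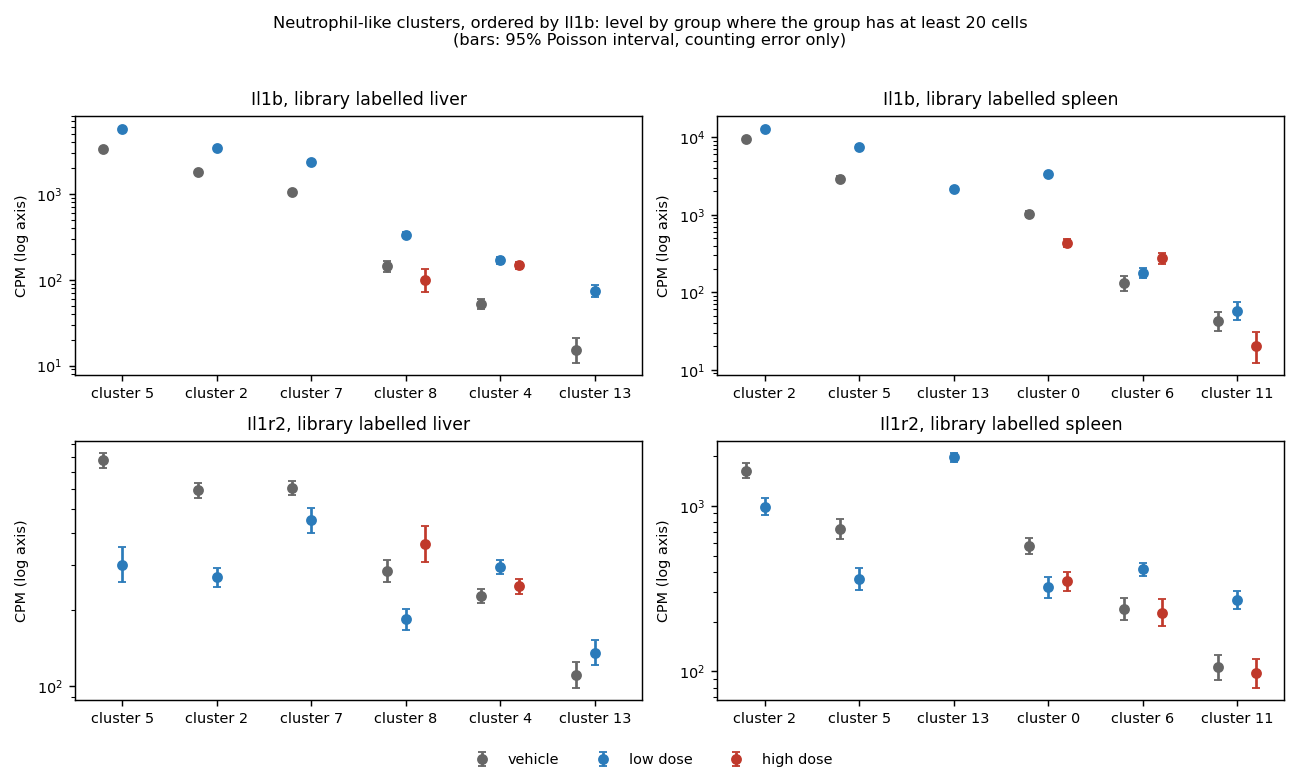
Il1b (top) and Il1r2 (bottom) in the neutrophil-like clusters of each library, in CPM on a log axis, with clusters ordered from the most to the least Il1b; points are groups with at least 20 cells and bars are Poisson intervals. Low-dose Il1b lies above the vehicle in each cluster where both are drawn, whereas low-dose Il1r2 lies below the vehicle at the left of each panel and above it at the right.

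Co-detection was read in vehicle neutrophil-like cells thinned to 1000 UMIs, of which 773 had an Il1b UMI and 647 had none in the liver-labelled library, and 168 and 181 in the spleen-labelled library. Il1r2 was found in 47.3% of cells with Il1b and 26.9% of cells without it (odds ratio 2.44, 1.95 to 3.05) in the liver-labelled library, and in 65.5% and 23.8% (6.09, 3.78 to 9.58) in the spleen-labelled library. Il1rap was found in 11.5% and 5.26% (2.35, 1.55 to 3.50), and in 7.14% and 1.66% (4.56, 1.22 to 13.6). Il1rn was found in 5.17% and 2.16% (2.47, 1.31 to 4.44), and in 10.7% and 1.10% (10.7, 2.31 to 33.7). The cells with Il1b thus more often held a UMI of the decoy, the accessory chain and the antagonist as well. Il18rap was found in 14.4% and 5.72% (2.76, 1.86 to 4.03), and in 9.52% and 4.97%, where the odds ratio of 2.01 had an interval of 0.859 to 4.49. Odds ratios taken within clusters were smaller, at 1.32 and 2.57 for Il1r2, 1.16 and 1.72 for Il1rap, 1.51 and 5.30 for Il1rn and 1.50 and 1.74 for Il18rap, so part of the co-detection lay between clusters.

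These shares depended on equal depth. Without thinning, Il1r2 was found in 79.2% of vehicle cells with Il1b and 88.5% of those without it in the liver-labelled library (odds ratio 0.497), which turned the direction. At the low dose, the thinned odds ratio of Il1r2 was 1.25 (0.945 to 1.65) and 1.24 (0.883 to 1.74), and within clusters it was 0.717 and 0.613. Il1rap was at 3.31 and 3.04 at that dose, with both intervals above 1. At the high dose only 25 and 30 thinned cells had an Il1b UMI, too few to read the rarer members.

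**Figure D4:**
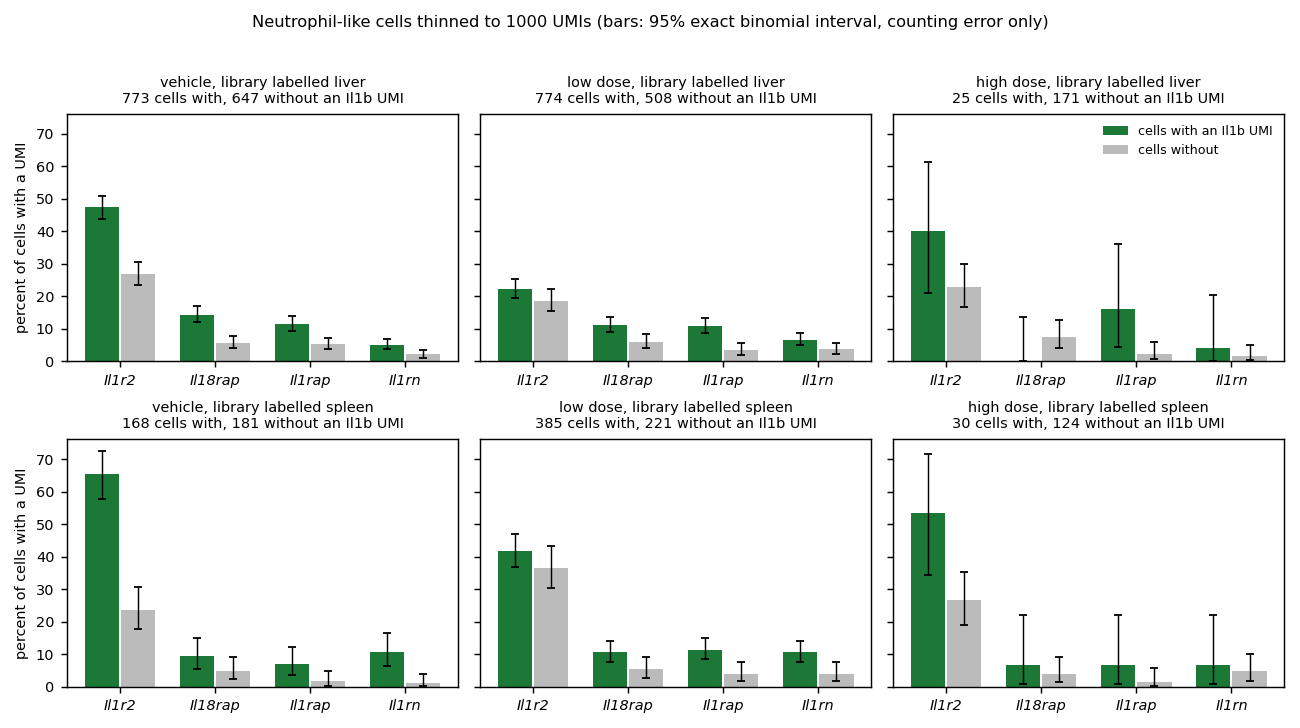
Percent of neutrophil-like cells, thinned to 1000 UMIs, with a UMI of Il1r2, Il1rap, Il1rn or Il18rap, for cells with and without an Il1b UMI, by group and library; bars show exact binomial intervals. In vehicle cells Il1r2 was found in 47.3% against 26.9% of cells in the liver-labelled library and in 65.5% against 23.8% in the spleen-labelled library, and at the low dose the shares lay closer together.

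Over 1420 and 349 thinned vehicle cells, 1685 genes were ranked by the lower of the correlations with Il1b in the libraries, as a description across cells that share a depth of 1000 UMIs and the clusters above. The closest 10 were Malat1 (r = 0.52 and 0.59), Btg1 (0.52 and 0.64), Junb (0.52 and 0.75), Fth1, Lst1, Srgn, H2-D1, Fxyd5, Neat1 and Igfbp6 (0.38 and 0.43). Within clusters all 10 had lower correlations, at 0.10 and 0.18 for Malat1, 0.17 and 0.30 for Btg1 and 0.21 and 0.50 for Junb. Malat1 and Neat1 are long noncoding nuclear RNAs, Junb is a subunit of AP-1, and Fth1 is the ferritin heavy chain. Of the family, Il1r2 stood at rank 79 (0.22 and 0.37, but 0.07 and 0.03 within clusters) and Il18rap at rank 478. The others had a UMI in too few cells to be ranked.

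Of 51 genes listed for the pathway, 47 were found in the files. At the high dose, 11 of the 32 with enough UMIs were past the fold and lower in the liver-labelled library and 4 of 27 in the spleen-labelled library, and 0 were higher, beside 17.8% and 3.89% of all genes that were lower. Their medians were -0.63 and -0.28, against -0.38 and 0.02 for all genes. Those lower in both libraries were Nlrp3 and Aim2, which encode inflammasome sensors, and Zfp36 and Tnfaip3, feedback inhibitors of inflammatory signaling. Nlrp3 went from 31.5 to 8.10 CPM (-1.96, -2.53 to -1.44) in the liver-labelled library and from 23.6 to 6.47 CPM (-1.86, -2.78 to -1.05) in the spleen-labelled library. Zfp36 went from 386 to 156 CPM (-1.31) and from 456 to 224 CPM (-1.03). Aim2 rested on 85 and 12 UMIs and on 20 and 6 UMIs. The interval of Tnfaip3, with 23 and 3 UMIs, spanned 0 in the liver-labelled library. Casp1, which encodes the cleaving protease (-0.05 and -0.13), and the adaptor Pycard (0.12 and -0.16) had intervals that spanned 0. All of these ratios are over all neutrophil-like cells, whose groups were spread unequally over the clusters. The part of this spread in the pathway ratios was not tested. At the low dose, 1 of 33 pathway genes was past the fold in the liver-labelled library, and it was lower, beside 2.87% of all genes. Within the spleen-labelled library 4 of 28 were higher, beside 2.25% of all genes, and 0 lower: Irak3 (1.21), Zc3h12a (1.09), Nlrp3 (1.07) and Tnfaip3 (1.02).

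In macrophage-like cells too, the interleukin-1 ligands were higher at the low dose. In macrophage-like cells of the liver-labelled library, Il1b went from 34.8 CPM (7 UMIs in 62 cells) to 548 CPM (113 UMIs in 57 cells), a log2 ratio of 3.98 (2.89 to 5.33), and Il1a from 9.93 to 228 CPM (2 and 47 UMIs; 4.52, 2.59 to 7.61). In those of the spleen-labelled library, Il1b went from 457 to 1165 CPM (1.35, 1.18 to 1.53) and Il1a from 29.2 to 67.2 CPM (1.20, 0.50 to 1.97). In monocyte-like cells Il1b was at 346 against 74.6 CPM (2.21, 1.99 to 2.43) in the liver-labelled library and at 1227 against 460.3 CPM (1.41, 1.24 to 1.59) in the spleen-labelled one. Il1a did not separate at the low dose in endothelial-like cells (91.9 and 139 CPM; 0.59, -0.51 to 1.90). The Il1b of T-like cells went from 24.1 to 5.98 CPM at the low dose in the liver-labelled library. In the spleen-labelled one it went from 30.9 to 193 CPM (2.64, 1.56 to 3.99), a larger ratio than those of macrophage-like and monocyte-like cells. These UMIs lay in few T-like cells there. The part of background in the macrophage-like and monocyte-like ratios was not tested. Both ligands thus stood above the vehicle at the low dose in macrophage-like cells of both libraries.

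At the high dose, Il1b of macrophage-like and monocyte-like cells did not lie below the vehicle. That of all neutrophil-like cells together did, though not within every cluster. Macrophage-like cells of the spleen-labelled library were at 559 CPM (0.29, 0.11 to 0.47), monocyte-like cells of the same library at 488 CPM (0.08, -0.15 to 0.31) and monocyte-like cells of the liver-labelled library at 102 CPM (0.45, 0.03 to 0.86). Dendritic-like cells of the spleen-labelled library went from 123 to 422 CPM (1.78, 1.21 to 2.40). Their median depth differed too, at 1080 UMIs in 65 vehicle cells and 7425 UMIs in 36 high-dose cells, and its part was not tested. Dendritic-like cells of the liver-labelled library were at 202 and 172 CPM (-0.23, -0.81 to 0.33). The share of Il1b by cell class also differed between the vehicle and the high dose. Neutrophil-like cells held 81.6% of the Il1b UMIs of the vehicle group in the spleen-labelled library and 29.1% of those of the high dose, while macrophage-like cells held 7.54% and 39.6%. The number of neutrophil-like cells and their Il1b level both enter this share. T-like cells of that library were at 99.3 CPM at the high dose, against 30.9 CPM for the vehicle.

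The antagonists and the decoy behaved differently from one class to the next. In macrophage-like cells of the spleen-labelled library, Il1r2 went from 40.3 CPM to 112 CPM at the low dose (1.47, 0.88 to 2.10) and 89.2 CPM at the high dose (1.15, 0.57 to 1.77). Il1rn in these cells was at 84.8, 72.8 and 69.2 CPM, with both intervals spanning 0. In monocyte-like cells of that library Il1rn had 1 UMI in the vehicle cells, 4 at the low dose and 30 at the high dose, in 74, 76 and 39 cells. The monocyte-like cells of the liver-labelled library went the other way in CPM, from 47 UMIs (15.1 CPM) to 2 UMIs (3.20 CPM) at the high dose (-2.24, -5.32 to -0.30). These UMIs lay in 14 of 155 vehicle cells (9.03%) and 2 of 26 high-dose cells (7.69%), so the share of cells differed little. Il18bp was lower at both doses in macrophage-like cells of the spleen-labelled library, at 97.3, 52.2 and 66.2 CPM (-0.90 and -0.56, with both intervals below 0). In those of the liver-labelled library it was at 124, 82.4 and 52.8 CPM. There both intervals spanned 0 (-0.59, -1.57 to 0.36, and -1.23, -2.69 to 0.02).

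Il18 did not separate by dose in macrophage-like cells of the liver-labelled library, its highest class there. It was at 373, 456 and 445 CPM, with both intervals spanning 0. It was at 161 and 227 CPM in Kupffer-like cells of the low-dose and high-dose groups of the spleen-labelled library, whose vehicle group held 6 such cells and was not compared. At the low dose it was above the vehicle in macrophage-like cells of that library (0.97, 0.08 to 1.94) and in monocyte-like cells of the liver-labelled (0.75, 0.15 to 1.34) and spleen-labelled libraries (0.82, 0.01 to 1.67). Il1r1 in endothelial-like cells was at 230 CPM (35 cells), 182 CPM (104 cells) and 130 CPM (108 cells), and the high-dose ratio was -0.82 (-1.57 to -0.02). In granulocyte progenitor-like cells of the liver-labelled library it had 4, 15 and 28 UMIs (0.763, 3.35 and 6.15 CPM). The high dose was above the vehicle (3.01, 1.50 to 4.98). The low-dose ratio (2.13, 0.48 to 4.18) rested on fewer UMIs than the minimum set for a fold call. Clusters 11 and 16, which made up this class, held 107 and 47 vehicle cells but 41 and 93 high-dose cells. The part of this shift in the Il1r1 ratio was not tested. In granulocyte progenitor-like cells of the spleen-labelled library, the low-dose interval of Il1r1 spanned 0 (0.73, -0.54 to 2.14). In NK-like cells Il18r1 was at 269, 309 and 206 CPM with both intervals spanning 0, and Il18rap was at 572, 415 and 425 CPM (-0.46, -0.89 to -0.03, and -0.43, -0.83 to -0.01). T-like cells of the liver-labelled library held Il18r1 at 54.1, 55.1 and 68.8 CPM, and the high dose was above the vehicle (0.35, 0.07 to 0.63).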

How the data were processed

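For 2 droplet libraries of pooled mice, the authors deposited UMI counts of genes and hashtags in filtered barcodes, neither normalized nor annotated by cell type. The submitters' processing notes name Cell Ranger 6.0.0 and mm10, and the matrix header names version 5.0.0. Each barcode held at least 500 UMIs. Groups were called with HTODemux (Seurat 5.3.0, quantile 0.99), with barcodes of exactly 1 hashtag retained. Clustering was run per library with SCTransform (sctransform 0.4.2), 30 components and resolution 0.8 in R 4.3.3, with the 10 genes and their pathway left out of the variable features (2969 of 3000 used). Naming a cluster X-like took 3 or more markers of 1 list that exceeded the rest of the library by a log2 ratio of 1 (10 CPM added) and were found in at least 20% of its cells, and leading 10 genes that did not favor another list.

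UMIs were summed per class and group and scaled to 1000000 (CPM), with exact Poisson intervals. Ratios carry exact conditional binomial intervals, and shares exact Clopper-Pearson ones. Intervals of odds ratios are normal approximations on the log scale. Classes with under 20 cells in a group were not compared, and 3 counts were taken as the limit of a count of 0. Cells under 1000 UMIs were left out of thinned shares. Doublets between hashtags were removed, and Scrublet (scanpy 1.11.5) doublets, 248 and 1, in an alternative only. The genes, lists and classes were chosen with earlier results of these data known. The genes named were the 10 members, the 10 genes most like Il1b among those in at least 5% of vehicle cells of both libraries, and pathway genes past the fold in the same direction in both libraries at the high dose. Those past the fold at the low dose in the spleen-labelled library, Casp1 and Pycard, and the leading genes of clusters were named after their values were seen. Positions are from GENCODE mouse release 21 and promoters from RefSeq. Python 3.11.15, numpy 2.4.6, scipy 1.17.1, pandas 2.3.3 and matplotlib 3.10.9 were used, and the ratio and its interval were tested on simulated data.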

Additional observations from a re-analysis of the deposited data

Results flagged for a closer look

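Il1r2 in neutrophil-like cells was flagged because the low dose moved it in opposite directions in the libraries: the log2 ratio to the vehicle was -0.51 in the liver-labelled library and 0.57 in the spleen-labelled library. Without cluster 13 of the spleen-labelled library, which held 2 vehicle and 114 low-dose cells, the ratio there was 0.01 (-0.10 to 0.13). Each group was 1 pooled sample, and the difference between the libraries was not tested.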

How the results depend on the processing

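No paired analysis was possible because each group was 1 pooled sample per library and the result comes from no test. The log2 ratio of Il1b at the high dose in the liver-labelled library (-2.18) was -2.73 as a mean over cells, -2.05 without the 20 most abundant genes and 0.74 with clusters weighted alike, which reversed it. The low-dose ratio there (0.80) was 0.63, 0.88 and 0.90 under the same alternatives. In the spleen-labelled library, the high-dose ratio (-2.00) was -1.11 with the cell filter (at least 200 genes and under 10% mitochondrial UMIs), -2.83 as a mean over cells and -0.85 with clusters weighted alike. The low-dose ratio (1.14) was 1.77 with that filter, 1.03 by the dominant hashtag, 0.56 as a mean over cells, 1.19 without the 20 most abundant genes and 0.73 with clusters weighted alike. Weighting clusters alike removes their unequal shares of cells, and the cause of the other changes was not tested. At the high dose this weighting rests on few cells, since several neutrophil-like clusters of each library held fewer than 20 high-dose cells. Without thinning, the odds ratios of co-detection with Il1b turned to 0.497 for Il1r2 and 0.619 for Il18rap in vehicle cells and 0.850 for Il1r2 at the high dose in the liver-labelled library, and to 0.733 and 0.883 for Il18rap in vehicle and low-dose cells of the spleen-labelled library. Leaving out cluster 13 of that library was chosen after seeing the data. Of 336 alternative values of 32 dose ratios, 286 moved by less than their counting error. Il1a and Il1r1 in endothelial-like cells could not be recomputed with the cell filter.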
